A study of Mus musculus with 9 samples.

Results

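The response of bone marrow-derived macrophages to 24 h of lipopolysaccharide (LPS) was described across all genes, from 6 of the 9 RNA sequencing libraries of the series. The 6 libraries were chosen by their treatment labels, 3 from Veh_LPS and 3 from Veh_N. In Veh_LPS a first hour (1 h) with vehicle was followed by 24 h with LPS. In Veh_N the same 1 h was followed by 24 h with vehicle. Every cell came from C57Bl/6 mice, and the sources used here do not give the vehicle, the dose of LPS or any pooling of animals. The third group of 3 libraries received D2HG for 1 h before 24 h of LPS and was not compared. It entered the choice of transcript per gene, the filter on low counts, the scaling and the estimate of the spread between replicates.

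These macrophages are grown in culture from marrow precursors and are a common model of the innate immune cell. LPS, a part of the outer membrane of Gram-negative bacteria, is sensed by Toll-like receptor 4 together with Cd14, and its signal runs through NF-kappaB, MAP kinases and interferon regulatory factors. The induced side of this response, with its cytokines, nitric oxide and interferon-stimulated genes, is the better known one. Resting macrophages also carry programs of receptor sensing, lipid handling, clock timing and growth that can be turned down at the same time, and these are the main subject here.

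Depth ran from 9451258 to 13759935 counts per library. Levels are given as CPM, the count of a gene relative to its library's size after TMM scaling, which sets the middle of the genes level between libraries, and as mean ± SD with n = 3. Fold changes are log2 values of Veh_LPS over Veh_N ± SE, so a negative value is lower under LPS. A gene was called by edgeR's quasi-likelihood test at a Benjamini-Hochberg adjusted p below 0.05 over all 11622 tested genes, which called 4071 (35.0%) higher and 4516 (38.9%) lower. Lists were counted by the stricter rule of a call with at least a 2-fold change. LPS changed the make-up of the RNA, with genes at least 2-fold higher taking 13.3% to 14.7% of counts in Veh_N and 48.4% to 49.8% in Veh_LPS, so every change is relative to the scaling. With library totals alone in place of TMM the median fold change of all genes moved from -0.07 to -0.74. Veh_N replicate 1 and Veh_LPS replicate 3 stood apart from the other replicates of their groups. Their deviations from the group means correlated across genes (r = 0.529). Both held more of 1 noncoding transcript matched to no gene, 2.25% and 2.08% of counts against at most 0.783% in the other 4 libraries compared. This transcript also varied in D2HG_LPS, with 1.71%, 1.04% and 0.52% of counts in replicates 1, 2 and 3. Without both libraries 2461 genes were at least 2-fold lower and 2112 higher, against 2477 and 2069 with them. The labels do not say whether replicates were separate cultures or animals, so the p-values rest on a spread between samples that may be technical only.

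All 15 macrophage identity markers were detected in both groups, at a summed level of 20433 to 23649 CPM in Veh_N and 18848 to 19728 CPM in Veh_LPS. The sums of markers of other cells were far smaller. The 14 neutrophil markers summed to 115 to 123 CPM in Veh_N and 254 to 277 CPM in Veh_LPS. The 12 lymphoid markers in the table summed to 22.5 to 27.1 CPM and 6.26 to 9.10 CPM, with Cd3d, Cd3e and Cd3g at 0 counts in all Veh_LPS libraries. The 12 dendritic cell markers summed to 76.1 to 102 CPM in Veh_N and 494 to 670 CPM in Veh_LPS. The 10 osteoclast markers summed to 339 to 438 CPM in Veh_N and 237 to 289 CPM in Veh_LPS, with Calcr at 0 counts. The 13 stromal and endothelial markers summed to 211 to 231 CPM and 178 to 202 CPM, with Lum and Pdgfra at 0 counts in both groups. The 15 markers of mast cells, basophils, erythroid cells and platelets summed to 103 to 123 CPM and 171 to 243 CPM, with Tpsb2, Mcpt4 and Fcer1a at 0 counts in both groups. Their part in the results was not tested. In bulk RNA, fewer cells of a type and less RNA per cell cannot be told apart.

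More genes fell than rose by 2-fold, but the falls were smaller. Of the 11622 genes, 2477 were called and at least 2-fold lower (21.3%) and 2069 at least 2-fold higher (17.8%). At 4-fold the order had turned, with 961 lower and 1038 higher. At 8-fold 385 were lower and 583 higher, and at 32-fold 61 were lower and 234 higher. The share of 2-fold calls that were higher was 45.5%, and 32.5% with upper-quartile scaling or 21.3% with library totals alone. Genes at least 2-fold lower made up 14.5% of counts in each Veh_N library and 2.7% in each Veh_LPS library. The plot of all genes by level shows both sides.

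**Figure D1:**
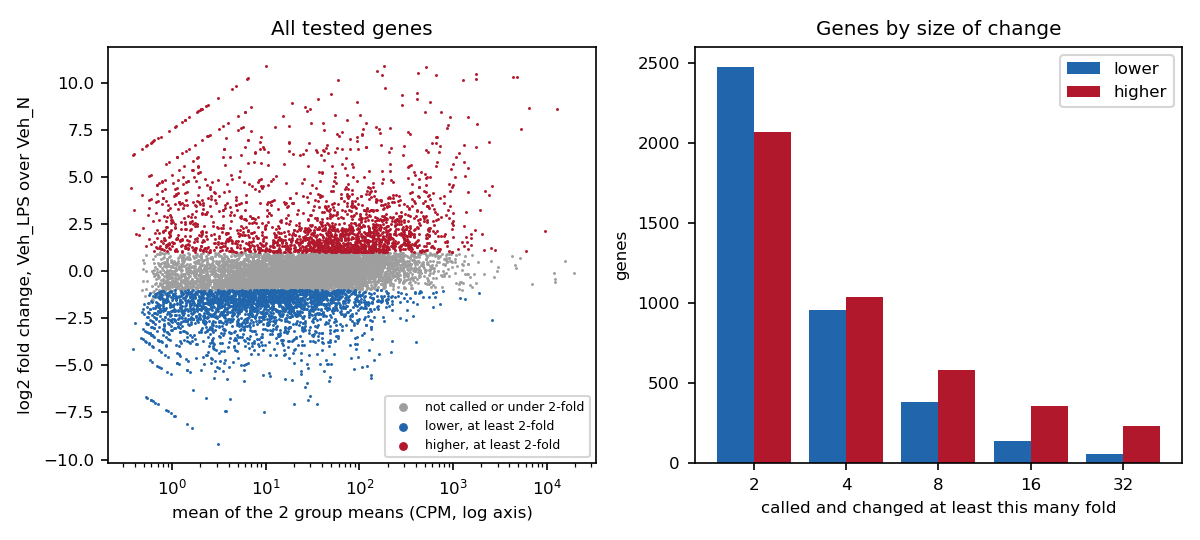
Left, log2 fold change of Veh_LPS over Veh_N against the mean level in CPM (log axis) for 11622 genes, coloured by call; rows of points at low levels are genes with 0 or few counts in 1 group, whose fitted fold changes depend on the prior count. Right, the number of called genes changed by at least 2-, 4-, 8-, 16- and 32-fold, where falls outnumber rises at 2-fold (2477 against 2069) and rises outnumber falls at 32-fold (234 against 61).

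The largest falls among genes with at least 20 CPM took in enzymes, receptors and signalling adaptors. Lpin1, the phosphatidate phosphatase of triglyceride and phospholipid synthesis that also acts as a nuclear coregulator, read 51.2, 60.2 and 57.1 CPM in the Veh_N libraries and 0.494, 0.743 and 0.263 CPM in the Veh_LPS libraries. The 3 Veh_LPS libraries were all below 1 CPM and far below the Veh_N libraries, a log2 fold change of -6.83 ± 0.20 (edgeR, Benjamini-Hochberg adjusted p = 7.31e-12). Sesn1, a stress-induced sestrin that restrains mTORC1, went from 263 ± 5.36 to 5.07 ± 0.454 CPM (-5.69 ± 0.15). The sulfate and anion transporter gene Slc26a11 (-7.05) and Fam214a (-7.05) changed most. Fam214a had 9 counts in all over the Veh_LPS libraries, and counting alone gives a 95% interval of -8.24 to -6.18.

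The other genes printed from the 30 largest falls had varied roles. Tns1, a focal adhesion protein that links integrins to actin, went from 263 ± 18.96 to 5.68 ± 0.989 CPM (-5.52 ± 0.13), and Mtss1, a membrane-bending scaffold, from 155 ± 22.3 to 6.36 ± 0.4799 CPM (-4.6 ± 0.14). St6gal1, the sialyltransferase that caps N-glycans with alpha-2,6 sialic acid, fell by 5.17 on the log2 scale, and Engase, which trims free N-glycans in the cytosol, by 5.4. The arrestin-domain gene Arrdc3 (-4.92), the kinase gene Aatk (-5.57), the ubiquitin ligase gene Peli2 (-5.45), the Ras exchange factor gene Rasgrp3 (-5.31), the AMPK subunit gene Prkag2 (-4.61) and Il16 (-4.73, or -5.34 without Veh_LPS replicate 3) fell too. Other members were Tcp11l2 (-6.64, or -7.27 without Veh_LPS replicate 2), Tmem86a (-4.92), Tmem273 (-5.15), Ypel3 (-4.74), Zfp395 (-5.93) and Zfp704 (-4.91).

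Across 41 lists drawn from textbook roles, the share of members that fell varied widely around the 21.3% of all genes. Clock genes (63.2%), mitosis genes (55.2%) and nuclear receptors (54.8%) held the most members at least 2-fold lower. Ribosomal protein genes of the cytosol (1.6%) and of mitochondria (1.3%) held the fewest apart from the antiviral list, which held 0. With library totals alone, which moves fold changes by -0.67, the medians of 12 lists that were positive turned negative, namely cytokine receptors, Fc receptors, lineage factors, the p53 pathway, glycolysis, the pentose phosphate pathway, the tricarboxylic acid cycle, cholesterol synthesis, amino acid carriers, V-ATPase and both ribosomal lists. With upper-quartile scaling 29% of all genes were at least 2-fold lower and 14% higher, and with library totals alone 40.6% and 11%. Beside a list with a count of 5 or more that moved by over 1.5 times with upper-quartile scaling, or whose counts changed order with either scaling, both pairs of counts follow in brackets. A gene given as not called was so under TMM, and of the 32 such genes named 22 were called lower with upper-quartile scaling and 31 with library totals alone. No set test was run, and shares are descriptions beside the share of all genes.

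**Figure D2:**
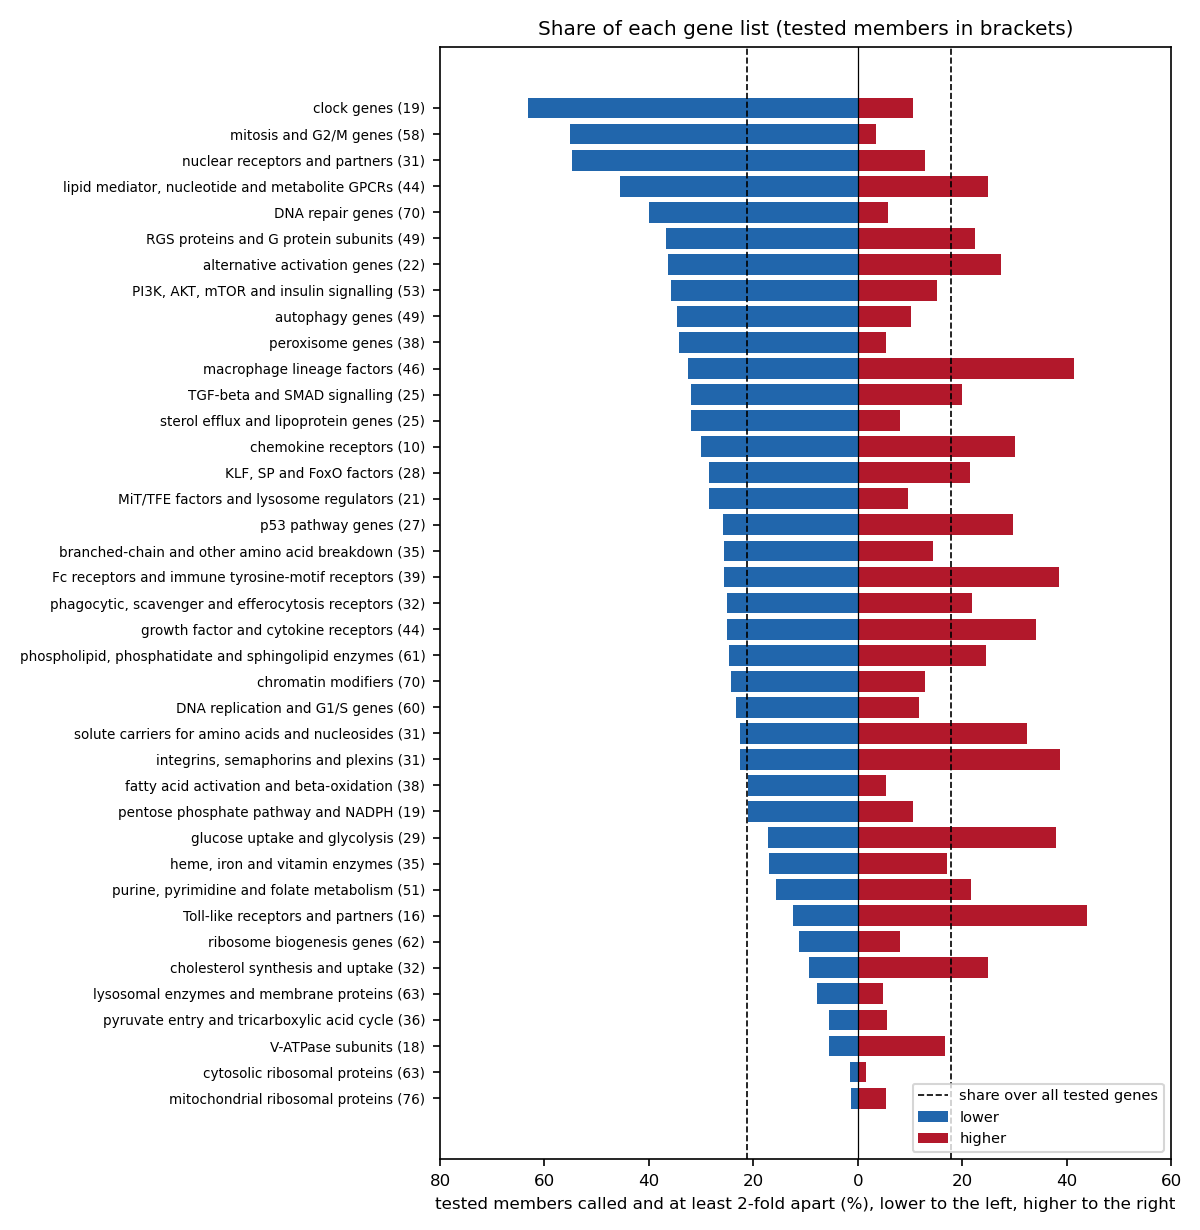
Percent of the tested members of each gene list (number in brackets) that were called and at least 2-fold lower (blue, to the left) or higher (red, to the right) in Veh_LPS; the antiviral list, with all 32 members higher, 1 other list and the marker lists are not drawn. Dashed lines mark the shares over all genes (21.3% and 17.8%); clock genes reach 63.2% lower and Toll-like receptors 43.8% higher.

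G protein-coupled receptors for lipid mediators, nucleotides and metabolites were split. Of 44 tested, 20 were at least 2-fold lower and 11 higher, with a median of -0.38 against -0.07 over all genes. S1pr1, the sphingosine-1-phosphate receptor that guides leukocyte egress, read 63.7, 48.5 and 41.5 CPM in the Veh_N libraries and 0.593, 0.955 and 0.613 CPM in the Veh_LPS libraries. Its groups were far apart (-6.15 ± 0.27). Cnr2, the cannabinoid receptor of immune cells, read 45.03, 47.1 and 46.6 CPM in the Veh_N libraries and 1.09, 1.27 and 1.14 CPM in the Veh_LPS libraries, again without overlap (-5.3 ± 0.14). The orphan-type receptors Gpr155 (38.3 to 1.25 CPM, -4.88) and Gpr34 (11.3 to 0.352 CPM, -4.95), the latter a lysophosphatidylserine receptor, were also lower.

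The 6 receptors that rose most were all below 1 CPM on average in Veh_N. Hcar2, which senses hydroxybutyrate and nicotinic acid, went from 0.821 ± 0.427 to 69.8 ± 4.58 CPM (6.33 ± 0.20), and Gpr84, a receptor for medium-chain fatty acids, from 0.897 ± 0.407 to 80.5 ± 8.02 CPM (6.43 ± 0.18). The adenosine receptor Adora2a read 0.138, 0.474 and 0.0784 CPM in the Veh_N libraries and 61.9, 61.2 and 56.97 CPM in the Veh_LPS libraries, high in every Veh_LPS library and close to absent in Veh_N (7.86 ± 0.22, or 8.95 without Veh_N replicate 2). The formyl peptide receptors Fpr1 (6.23) and Fpr2 (7.5, or 8.23 without Veh_N replicate 1) and the lysophosphatidate receptor Lpar1 (8.54) rose as well. Summed over Veh_N, Lpar1 had 6 counts, which gives a 95% counting interval of 7.53 to 10.10, and the fitted value was 9.33 without Veh_N replicate 2. Within the lysophosphatidate receptors, Lpar5 (-5.81, 95% counting interval -7.34 to -4.76) and Lpar6 (37.4 to 3.15 CPM, -3.58) moved the other way. Among prostaglandin E2 receptors Ptger2 fell by 3.67 on the log2 scale and Ptger4 rose by 1.77. These last 4 genes were chosen after their values were seen.

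**Figure D3:**
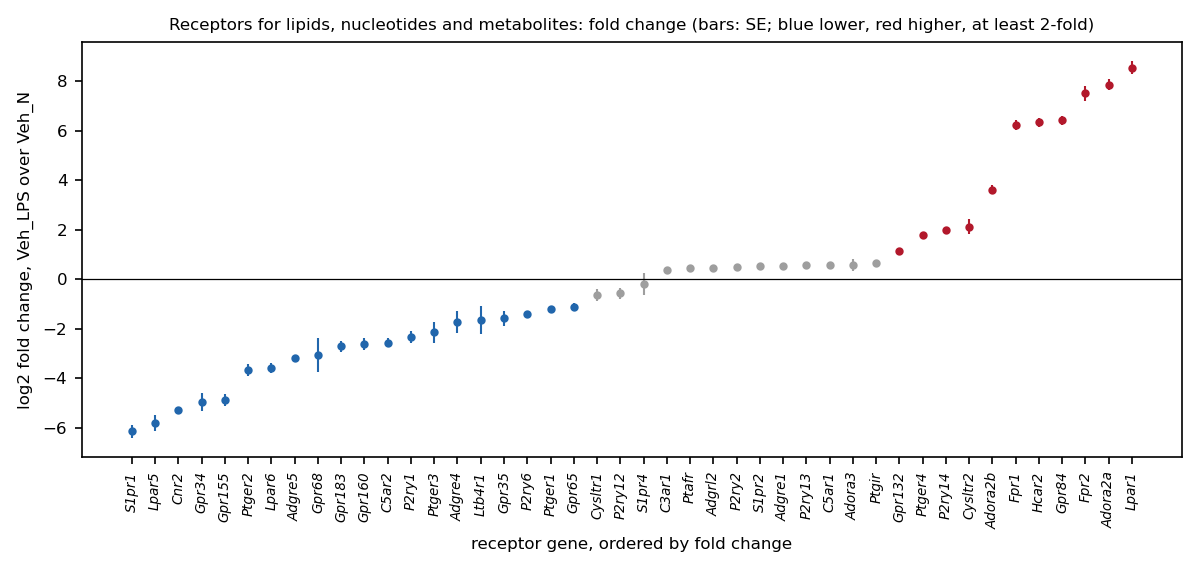
Log2 fold change of Veh_LPS over Veh_N (points, bars are SE) for the 44 tested receptors for lipids, nucleotides and metabolites, ordered by value; blue and red points are called and at least 2-fold apart. S1pr1 lies at -6.15 and Lpar1 at 8.54, with 20 receptors in blue and 11 in red.

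The machinery behind these receptors moved in both directions. Of 49 RGS proteins, G protein subunits and their partners, 18 were at least 2-fold lower and 11 higher (median -0.29). Arrb1, the beta-arrestin that ends and redirects receptor signals, went from 274 ± 3.74 to 10.4 ± 0.116 CPM (-4.72 ± 0.08), Adcy9, an adenylyl cyclase, from 41.1 ± 4.21 to 2.71 ± 0.159 CPM (-3.92 ± 0.14) and Gna12 from 109.5 to 15.6 CPM (-2.81). Higher members were Gnb4 (4.46), the phosphodiesterase gene Pde4b (4.36), which degrades cyclic AMP, and Rgs1 (3.35). The abundant subunit genes Gnas (0.03 ± 0.07) and Gnai2 (0.11 ± 0.07) were not called.

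Chemokine receptors were few, with 3 of 10 at least 2-fold lower and 3 higher (3 and 2 with upper-quartile scaling, 4 and 2 with library totals). Cxcr4, the receptor for the marrow retention signal Cxcl12, read 81.3, 92.5 and 108 CPM in the Veh_N libraries and 2.07, 1.38 and 1.49 CPM in the Veh_LPS libraries, so that LPS libraries kept about the level of a barely detected gene (-5.82 ± 0.17). Ccr2, the monocyte recruitment receptor, went from 115 ± 27.7 to 32.2 ± 8.06 CPM (-1.83 ± 0.19). Ccr7 (0.714 to 11.6 CPM, 4.06) and Ccrl2 (7.98 to 572 CPM, 6.15) were higher. Ccr1 (-0.23 ± 0.13) and Ccr3 (0.06 ± 0.20) were not called, though Ccr1 was without Veh_N replicate 3 (-0.36) and Ccr3 without Veh_N replicate 1 (0.37).

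Of 44 growth factor and cytokine receptors 15 were at least 2-fold higher and 11 lower (14 and 12 with upper-quartile scaling, 12 and 14 with library totals). Csf1r, the receptor for the growth factor on which these cells depend, read 1612, 1794 and 1835 CPM in the Veh_N libraries and 669, 654 and 641 CPM in the Veh_LPS libraries. It stayed among the abundant genes but was lower in all 3 LPS libraries (-1.42 ± 0.07). Il6ra, the ligand-binding chain of the interleukin-6 receptor, went from 72.6 ± 5.82 to 6.22 ± 1.21 CPM (-3.53 ± 0.14). Its signalling chain Il6st (-2.02) and the interferon-gamma receptor gene Ifngr1 (-2.18), both chosen after their values were seen, were lower too. The higher members included Il15ra (5.69), Il12rb1 (5.25), Met (5.73), Flt1 (4.24) and Il13ra1 (2.91). Il4ra (-0.20 ± 0.11) was not called, but was without Veh_N replicate 1 (-0.26) or Veh_LPS replicate 1 (-0.32).

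Genes of the TGF-beta pathway lay at a median of -0.03, with 8 of 25 at least 2-fold lower and 5 higher. Both chains of the TGF-beta receptor were lower, Tgfbr1 from 76.4 ± 17.95 to 11.5 ± 2.82 CPM (-2.72 ± 0.19) and Tgfbr2 from 207 ± 10.8 to 74.2 ± 4.99 CPM (-1.48 ± 0.08), as was Smad3, which carries the signal to the nucleus (15.8 to 1.29 CPM, -3.58). The SMAD antagonist gene Skil (2.82), the activin receptor gene Acvr1 (2.18) and the activin subunit gene Inhba (6.59, 95% counting interval 5.69 to 7.90) were higher. The ligand gene Tgfb1 was at 397 to 396 CPM (-0.00 ± 0.08) and was not called.

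Of 16 Toll-like receptors and partners 7 were at least 2-fold higher and 2 lower. Tlr3, the sensor of double-stranded RNA, rose most (14.6 to 281 CPM, 4.26), followed by Tlr2 (2.47), Cd14 (2.16), Tlr9 (2.0), Tlr6 (1.94) and Cd180 (1.88). Tlr4, the receptor for LPS itself, went from 147 ± 41.7 to 108 ± 25.3 CPM (-0.44 ± 0.18, edgeR, Benjamini-Hochberg adjusted p = 0.045), with libraries that overlapped. Its call did not hold with the 6 libraries alone (-0.39), by DESeq2 (-0.39), with no filter on low counts (-0.44), with the replicate block (-0.44) or without Veh_N replicate 1 (-0.19), Veh_LPS replicate 1 or 2 (-0.35 and -0.33) or any single D2HG_LPS library (-0.44 to -0.43). The call of Tlr4 held without both libraries that stood apart (-0.40). It also held without Veh_LPS replicate 3 (-0.65), Veh_N replicate 2 (-0.54) or Veh_N replicate 3 (-0.57). Limma-voom (-0.43), the filter at 5 CPM (-0.49) and the sum of transcripts (-0.44) kept it, as did upper-quartile scaling (-0.76) and library totals alone (-1.11). Tlr8 was not called (0.05 ± 0.18).

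Receptors for particles and dying cells went both ways. Of 32, 8 were at least 2-fold lower and 7 higher (13 and 7 with upper-quartile scaling, 16 and 7 with library totals). The paired receptor genes Cd300lb (232 to 6.999 CPM, -5.05) and Cd300a (254 to 21.1 CPM, -3.59), which bind lipids on dying cells, fell. So did the haemoglobin receptor gene Cd163 (12.5 to 0.707 CPM, -4.06, or -4.73 without Veh_LPS replicate 3) and the scavenger receptor gene Stab2 (-3.79). The TAM receptors, which take up apoptotic cells through Gas6, were higher, Axl from 34.7 ± 3.23 to 256 ± 16.1 CPM (2.88 ± 0.09) and Mertk from 106 ± 1.29 to 199 ± 17.8 CPM (0.92 ± 0.09). Mertk's change was called but below 2-fold. Marco rose by 3.61 on the log2 scale, and Cd68 (-0.13 ± 0.08) and Tyrobp (-0.35 ± 0.16) were not called. Both were called lower without Veh_N replicate 1 (-0.19 and -0.5), and Tyrobp also without Veh_LPS replicate 2 (-0.44) and with the filter at 5 CPM (-0.39). Without both libraries that stood apart Tyrobp was called lower too (-0.37).

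Among 39 Fc receptors and receptors with immune tyrosine motifs, 15 were at least 2-fold higher and 10 lower (12 and 14 with upper-quartile scaling, 10 and 16 with library totals). Fcgrt, the neonatal Fc receptor that recycles antibody and albumin, fell from 153 ± 31.1 to 20.8 ± 1.12 CPM (-2.88 ± 0.14), while Fcgr1, the high-affinity Fc-gamma receptor, rose from 173 ± 14.2 to 1297 ± 75.4 CPM (2.9 ± 0.09). The galactose-type lectin gene Clec10a fell (-2.67) and the mycobacterial lipid receptor gene Clec4e rose (6.35). Fcgr3 (-0.14 ± 0.09) and Siglec1 (0.09 ± 0.12) were not called. Among 31 integrins, semaphorins and plexins 12 were at least 2-fold higher and 7 lower (10 and 8 with upper-quartile scaling, 10 and 11 with library totals), with Itga5 (2.78), Itgal (2.98) and Pecam1 (4.83) higher, Sema6b lower (-3.31) and Itgb2, the beta-2 integrin chain, not called (0.04 ± 0.07).

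Factors that set macrophage identity did not move as a block. Of 46 lineage factors, 15 were at least 2-fold lower and 19 higher (17 and 15 with upper-quartile scaling, 19 and 12 with library totals), with a median of 0.06. Cebpa, which directs granulocyte and macrophage development, read 83.4, 99.9 and 98.8 CPM in the Veh_N libraries and 1.98, 2.44 and 1.4002 CPM in the Veh_LPS libraries, with the 3 LPS libraries far below the others (-5.61 ± 0.19, edgeR, Benjamini-Hochberg adjusted p = 2.25e-11). Spi1, which encodes PU.1, the master factor of the myeloid lineage, read 187, 207 and 233 CPM in the Veh_N libraries and 587, 618 and 533 CPM in the Veh_LPS libraries and was higher in all LPS libraries (1.47 ± 0.09). Maf (0.05 ± 0.10) was not called. Lyl1, a basic helix-loop-helix factor of blood progenitors, went from 73.7 ± 13.2 to 2.38 ± 0.375 CPM (-4.94 ± 0.23). In the C/EBP family Cebpd rose (14.7 to 142 CPM, 3.27) where Cebpa fell. Mef2c (118 to 24.2 CPM, -2.28), Mef2d (-2.66) and Fli1 (-2.71), chosen after their values were seen, were lower, and Mycl was higher (8.92, 95% counting interval 7.57 to 11.40, or 9.63 without Veh_N replicate 2).

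Nuclear receptors, the ligand-bound factors of lipid, retinoid and thyroid signals, were mostly lower. Of 31 receptors and partners 17 were at least 2-fold lower, 4 were higher, and the median was -1.10. Rxra, the common partner of many of them, read 58.2, 57.8 and 62.1 CPM in the Veh_N libraries and 4.84, 3.501 and 5.34 CPM in the Veh_LPS libraries, about an order of magnitude lower in each LPS library (-3.69 ± 0.17). Pparg, the fatty acid sensor of lipid-handling macrophages, read 38.3, 40.3 and 32.1 CPM in the Veh_N libraries and 6.12, 4.56 and 5.25 CPM in the Veh_LPS libraries, without overlap (-2.79 ± 0.15). Nr2c2 (-2.34) and Nr2f6 (-2.43) were lower as well. Nr4a3 went the other way (0.0887 to 12.9 CPM, 7.0, 95% counting interval 5.79 to 9.04, or 8.18 without Veh_N replicate 1). Nr1h2, which encodes liver X receptor beta, was not called (0.18 ± 0.09) but was without Veh_N replicate 2 (0.25) or Veh_LPS replicate 3 (0.23) and by DESeq2 (0.24). The corepressor gene Ncor1 was not called (-0.00 ± 0.13).

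**Figure D4:**
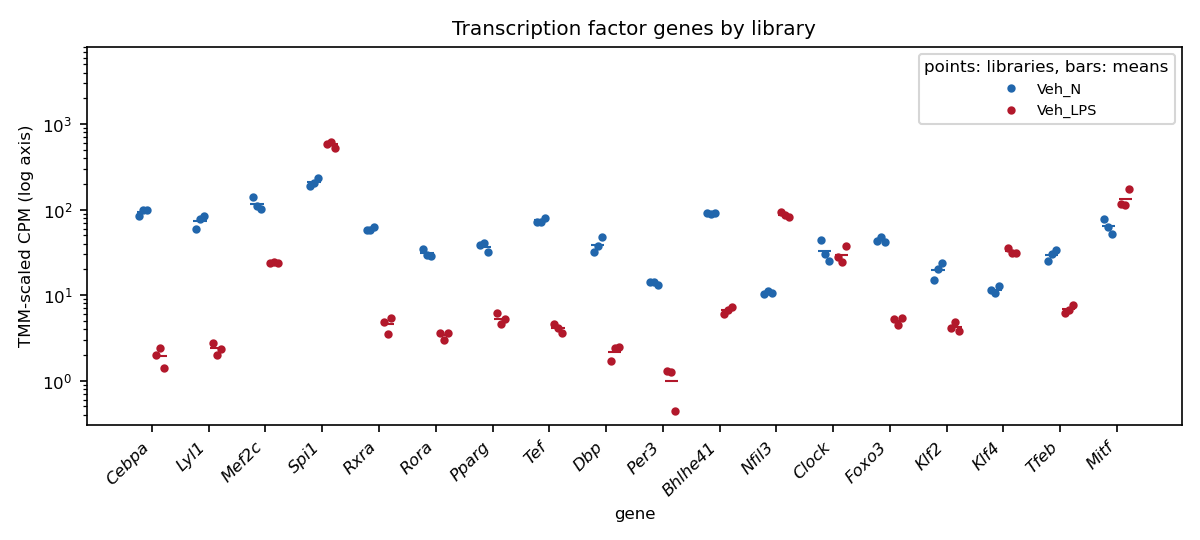
TMM-scaled CPM (log axis) of 18 transcription factor genes in the 3 Veh_N libraries (blue) and the 3 Veh_LPS libraries (red), with bars at the group means. Groups are apart for every gene drawn except Clock; Spi1, Nfil3, Klf4 and Mitf are the genes drawn that are higher under LPS.

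Clock genes had the highest share of members at least 2-fold lower among the lists drawn. The circadian clock is a loop in which Clock and its partner turn on Per and Cry genes through E-box sites, and output factors of the PAR type carry the rhythm to other genes. Of 19 tested, 12 were at least 2-fold lower and 2 higher, with a median of -1.73. Tef, an output factor, read 72.5, 72.6 and 81.03 CPM in the Veh_N libraries and 4.64, 4.14 and 3.59 CPM in the Veh_LPS libraries, and Dbp, its relative, read 31.9, 37.3 and 48.3 CPM in the Veh_N libraries and 1.68, 2.44 and 2.45 CPM in the Veh_LPS libraries. In both genes every LPS library lay far below every Veh_N library (-4.19 ± 0.13 and -4.15 ± 0.24). Per3 went from 13.98 ± 0.636 to 0.998 ± 0.486 CPM (-3.83 ± 0.32), Bhlhe41, a repressor of the loop, from 90.3 ± 1.49 to 6.72 ± 0.666 CPM (-3.74 ± 0.11), and Rora, an activator of the loop, from 31.02 ± 3.55 to 3.404 ± 0.377 CPM (-3.18 ± 0.14). Nfil3, which competes with Dbp and Tef for the same sites, rose from 10.7 ± 0.413 to 87.4 ± 6.31 CPM (3.03 ± 0.10), and Cry1 rose by 1.18 (chosen after its value was seen, as was Per1 below). Clock was at 33.2 to 29.8 CPM and was not called (-0.15 ± 0.19). All 3 libraries of a group were taken at 1 time, so a shift in phase and a change in mean level cannot be told apart.

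The E-box letters CACGTG, which read the same on both strands, were in 6 of 24 promoters (25%) of clock genes and 1006 of 11884 promoters (8.5%) of all tested genes, counting the 250 bases before each start in RefSeq's table (GRCm38.p6). Clock genes have few promoters here, and the D-box letters TTANGTAA, searched on both strands, were in 1 of 24 promoters (4.2%) of them. Over all genes at least 2-fold lower the E-box was in 218 of 2580 promoters (8.4%), near the share of all tested genes. The stretches of Tef, Bhlhe41 and Per1 (-1.55) are shown as clock genes that fell and hold the E-box, in capitals. They lie at chr15:81802423-81802672, plus strand (Tef), chr6:145865421-145865670, minus strand (Bhlhe41) and chr11:69098699-69098948, plus strand (Per1). A match is a description of letters and shows no binding.
Tef: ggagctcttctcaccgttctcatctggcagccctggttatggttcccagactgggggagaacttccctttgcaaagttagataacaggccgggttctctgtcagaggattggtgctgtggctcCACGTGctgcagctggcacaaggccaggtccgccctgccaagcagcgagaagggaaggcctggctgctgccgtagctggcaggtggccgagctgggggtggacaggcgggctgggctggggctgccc
Bhlhe41: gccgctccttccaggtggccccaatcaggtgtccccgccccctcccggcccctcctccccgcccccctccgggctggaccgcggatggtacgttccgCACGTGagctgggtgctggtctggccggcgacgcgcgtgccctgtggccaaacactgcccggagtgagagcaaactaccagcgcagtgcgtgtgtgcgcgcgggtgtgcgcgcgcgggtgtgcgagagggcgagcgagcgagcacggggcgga
Per1: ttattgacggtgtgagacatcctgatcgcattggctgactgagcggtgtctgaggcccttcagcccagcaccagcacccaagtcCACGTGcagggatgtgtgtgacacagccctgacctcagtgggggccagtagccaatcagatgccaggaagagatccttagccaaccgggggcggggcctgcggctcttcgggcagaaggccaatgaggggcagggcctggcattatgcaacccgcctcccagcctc

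KLF, SP and FoxO factors were lower in 8 of 28 cases and higher in 6 (15 and 6 with upper-quartile scaling, 16 and 3 with library totals), with a median of -0.71. Foxo3, a factor of starvation and stress, went from 44.2 ± 3.12 to 5.04 ± 0.508 CPM (-3.13 ± 0.13), and Klf10, a TGF-beta-induced factor, from 42.95 to 5.31 CPM (-3.02). Klf2 and Klf4, close relatives that restrain inflammation, moved apart, Klf2 from 19.7 ± 4.17 to 4.29 ± 0.5297 CPM (-2.2 ± 0.18) and Klf4 from 11.6 ± 1.101 to 32.8 ± 2.43 CPM (1.5 ± 0.11). Klf6 was the most abundant of the higher ones (281 to 1648 CPM, 2.55).

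The MiT/TFE factors, which drive lysosome and autophagy genes when nutrients are scarce, also moved apart. Tfeb read 25.4, 30.3 and 33.4 CPM in the Veh_N libraries and 6.12, 6.79 and 7.61 CPM in the Veh_LPS libraries and was lower in all LPS libraries (-2.11 ± 0.17), while its relatives Mitf (64.6 to 134 CPM, 1.05) and Tfec (1.26) were higher and Tfe3 was not called (-0.15 ± 0.08). Rragd, a Rag GTPase of the same nutrient circuit, fell from 55.6 to 4.28 CPM (-3.69), Flcn, its GTPase-activating partner, from 92.8 to 22.3 CPM (-2.05), and Tpcn1, a channel of endolysosomes, from 239.9 to 28.5 CPM (-3.07). Of the 21 members of this list 6 were at least 2-fold lower and 2 higher under TMM. These shares were 28.6% and 9.5%, against 21.3% and 17.8% of all genes. With upper-quartile scaling or library totals alone 0 of the 21 stayed at least 2-fold higher.

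Chromatin modifiers were near the background, with 17 of 70 at least 2-fold lower and 9 higher. The class IIa deacetylase gene Hdac5 (65.4 to 5.97 CPM, -3.46), the methyltransferase gene Setd7 (-3.12), the Polycomb-linked Kdm2b (-2.97) and Cbx7 (-2.69) were lower. Tet2, which oxidises 5-methylcytosine, rose from 35.3 ± 5.18 to 188 ± 29.98 CPM (2.41 ± 0.13), and Brd2 rose by 2.25. Genes with zinc finger (Zfp) names fell widely, with 127 of 307 at least 2-fold lower, 17 higher (177 and 10 with upper-quartile scaling, 222 and 6 with library totals) and a median of -0.83. Many of them have close copies, so single counts are uncertain.

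Sugar metabolism leaned higher under TMM. Of 29 genes of glucose uptake and glycolysis 11 were at least 2-fold higher and 5 lower (8 and 8 with upper-quartile scaling, 6 and 9 with library totals) (median 0.54, or -0.12 with library totals alone). The paired enzymes that set fructose-2,6-bisphosphate changed isoform, with Pfkfb3 from 25.9 ± 2.25 to 251 ± 26.4 CPM (3.28 ± 0.10) and Pfkfb2 from 29.1 ± 2.42 to 6.63 ± 1.84 CPM (-2.12 ± 0.17). The transporters Slc2a6 (4.98) and Slc2a1 (1.76) and the platelet-type phosphofructokinase gene Pfkp (2.52) were higher. Gapdh read only 2.74 to 4.01 CPM (0.54 ± 0.33, not called), far under its usual place among the most abundant genes. Gapdh has many near-identical copies in the genome, so its count is uncertain, and the same holds for many ribosomal protein genes.

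Few genes of pyruvate entry and the tricarboxylic acid cycle changed 2-fold, with 32 of 36 not 2-fold apart in either direction under TMM, where 2 were lower and 2 higher (4 and 1 with upper-quartile scaling, 10 and 1 with library totals). At any size 18 of the 36 were called higher and 9 lower under TMM, where 35.0% of all genes were called higher and 38.9% lower. Pdk2, a kinase that shuts pyruvate dehydrogenase, fell from 16.5 ± 2.29 to 1.21 ± 0.241 CPM (-3.77 ± 0.21) and Pdk3, of the same family, rose from 9.74 ± 1.25 to 46.2 ± 2.595 CPM (2.24 ± 0.12). Sdha (0.03 ± 0.07) and Mdh1 (0.06 ± 0.08) were not called. Complex I subunits were alike, with 2 of 37 at least 2-fold higher and 0 lower (0 and 0 with upper-quartile scaling, 0 and 1 with library totals). At any size 15 of these subunits were called higher and 1 lower under TMM. Of 19 genes of the pentose phosphate pathway and NADPH supply 4 were at least 2-fold lower and 2 higher, Idh1, the cytosolic isocitrate dehydrogenase, from 259.6 ± 9.29 to 86.95 ± 7.24 CPM (-1.58 ± 0.10), the mitochondrial NAD kinase gene Nadk2 by -2.45, and Rpe higher (1.37).

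Genes of fat oxidation fell about as often as all genes. Of 38 genes of fatty acid activation and beta-oxidation 8 were at least 2-fold lower and 2 higher, or 21.1% lower against 21.3% of all genes. The acyl-CoA synthetases moved apart, Acsl3 from 44.96 ± 8.08 to 4.99 ± 0.849 CPM (-3.16 ± 0.18) and Acsl1 from 45.6 ± 5.43 to 303 ± 33.4 CPM (2.73 ± 0.11). Carnitine acetyltransferase Crat (101 to 31.8 CPM, -1.66), the medium-chain dehydrogenase gene Acadm (-1.15) and the hydratase gene Echs1 (-1.17) fell. Cpt1a, which commits long-chain fatty acids to mitochondria, was not called (107 to 97.5 CPM, -0.14 ± 0.09), but was without Veh_LPS replicate 3 (-0.21), with upper-quartile scaling (-0.46) and with library totals alone (-0.81). Cpt1a was also called lower without both libraries that stood apart (-0.20). In the peroxisome, where very long fatty acids are shortened, 13 of 38 genes were at least 2-fold lower and 2 higher (median -0.54). The peroxisomal transporter gene Abcd2 fell from 23.4 ± 1.602 to 1.35 ± 0.402 CPM (-4.13 ± 0.21), as did the lyase gene Hacl1 (-2.54) and the oxidase gene Acox3 (-1.55), and Pex19, needed to build the membrane, was not called (0.16 ± 0.09).

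Sterol synthesis leaned higher under the main scaling and sterol export lower. Of 32 genes of cholesterol synthesis and uptake 8 were at least 2-fold higher and 3 lower (5 and 5 with upper-quartile scaling, 1 and 9 with library totals) (median 0.37, or -0.30 with library totals alone). Hmgcs1, an early enzyme of the pathway, read 138, 121 and 94.6 CPM in the Veh_N libraries and 306, 333 and 367 CPM in the Veh_LPS libraries, higher in all LPS libraries (1.51 ± 0.12). Soat1, which esterifies cholesterol for storage, fell (509 to 192 CPM, -1.4), and Sqle (-0.12 ± 0.13) was not called. Of 25 genes of sterol efflux and lipoproteins 8 were at least 2-fold lower and 2 higher. Abca1, the main cholesterol exporter, read 607, 522 and 438 CPM in the Veh_N libraries and 114, 111 and 154 CPM in the Veh_LPS libraries, lower without overlap (-2.05 ± 0.14), the desaturase gene Scd2 fell from 618 to 121 CPM (-2.35), and Ch25h, which makes 25-hydroxycholesterol, rose from 0.121 to 51.8 CPM (8.71, 95% counting interval 7.61 to 10.46, or 9.45 without Veh_N replicate 3).

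Phospholipid and sphingolipid enzymes were balanced under TMM, 15 of 61 at least 2-fold lower and 15 higher (23 and 12 with upper-quartile scaling, 26 and 10 with library totals). Under TMM each count was 24.6%, against 21.3% of all genes lower and 17.8% higher. Cerk, ceramide kinase, went from 306 ± 9.02 to 14.8 ± 0.237 CPM (-4.37 ± 0.08), and the lysosomal phospholipase gene Pla2g15 from 209 to 29.1 CPM (-2.84). The ceramide synthase gene Cers6 (88.5 to 970.3 CPM, 3.45), the cytosolic phospholipase gene Pla2g4a (3.39) and the diacylglycerol kinase gene Dgkh (3.68) rose.

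In amino acid breakdown 9 of 35 genes were at least 2-fold lower and 5 higher (median -0.46). These shares were 25.7% and 14.3%, against 21.3% and 17.8% of all genes. Hibch (-1.97) and Aldh6a1 (-1.57) of valine breakdown were lower. Ass1, which rebuilds arginine from citrulline, rose from 2.91 ± 0.548 to 36.6 ± 4.34 CPM (3.64 ± 0.15) and Ppm1k, the phosphatase that activates branched-chain breakdown, from 11.9 ± 1.28 to 177 ± 15.7 CPM (3.9 ± 0.12). In nucleotide metabolism 11 of 51 were at least 2-fold higher and 8 lower (9 and 11 with upper-quartile scaling, 6 and 19 with library totals). Under TMM this was 21.6% higher and 15.7% lower, against 17.8% and 21.3% of all genes. Higher members were Upp1, uridine phosphorylase, at 0.0854 to 118 CPM (10.19, 95% counting interval 8.98 to 12.21, or 11.27 without Veh_N replicate 2), Pnp at 3.88 and the folate enzyme gene Mthfd2 at 2.56.

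Transporters showed some of the largest single changes. Slc40a1, ferroportin, the only known iron exporter, read 452, 375 and 408 CPM in the Veh_N libraries and 20.6, 18.99 and 24.5 CPM in the Veh_LPS libraries, low in every LPS library (-4.26 ± 0.12), while the importer gene Slc11a2 rose from 45.7 ± 3.49 to 236 ± 14.4 CPM (2.37 ± 0.08). Slc43a2, a carrier of large neutral amino acids, fell from 747 ± 23.5 to 56.3 ± 3.399 CPM (-3.73 ± 0.08), and Slc7a2, a carrier of arginine, rose from 1.74 ± 0.722 to 158 ± 22.4 CPM (6.5 ± 0.20). Nampt, which salvages nicotinamide, rose from 115 to 1148 CPM (3.32), and the haem oxygenase gene Hmox1 was not called (-0.13 ± 0.09). Over all 182 solute carriers 45 were at least 2-fold lower and 36 higher, close to the background.

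Genes of mitosis were lower in most cases. Of 58 tested, 32 were at least 2-fold lower, 2 were higher, and the median was -1.08. Cdc20, which activates the anaphase-promoting complex, read 22.1, 25.3 and 27.98 CPM in the Veh_N libraries and 2.27, 2.55 and 2.19 CPM in the Veh_LPS libraries, an order of magnitude lower in the LPS libraries (-3.42 ± 0.17). Aspm, a spindle pole protein, read 51.9, 38.2 and 26.96 CPM in the Veh_N libraries and 2.27, 2.86 and 4.99 CPM in the Veh_LPS libraries, without overlap (-3.51 ± 0.28). Kif23 (61.8 to 6.46 CPM, -3.25) and Anln (-2.93) of cytokinesis and Cenpf of the kinetochore (-2.95) were lower, as was Plk1 (28.5 to 9.45 CPM, -1.6). The decline was uneven. Ccnb1 (8.302 to 5.41 CPM, -0.61 ± 0.21) and Ube2c (46.8 to 34.4 CPM, -0.45 ± 0.14) fell by less than 2-fold, the call of Ccnb1 being lost without Veh_LPS replicate 1 (-0.49) or Veh_N replicate 1 (-0.45). That call was also lost without both libraries that stood apart (-0.51). Smc2 was not called (-0.02 ± 0.16), and Pttg1, securin, rose from 16.1 ± 1.13 to 133 ± 13.7 CPM (3.04 ± 0.10). Among kinesin genes 22 of 33 were at least 2-fold lower and 4 higher (median -1.59), Kif21b, a neuronal and immune kinesin outside mitosis, among them (45.03 to 3.39 CPM, -3.71).

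Mitotic promoters are known for a CCAAT box and the CHR element TTTGAA. Searched on both strands of the 250 bases before each start, CCAAT was in 37 of 51 promoters (72.5%) of mitosis genes and 4187 of 11884 promoters (35.2%) of all tested genes. TTTGAA was in 20 of 51 promoters (39.2%) and 1281 of 11884 promoters (10.8%). Over all genes at least 2-fold lower the shares were near the background, with CCAAT in 949 of 2580 promoters (36.8%) and TTTGAA in 297 of 2580 promoters (11.5%). The stretches of Cdc20 (chr4:118437344-118437593, minus strand), Aspm (chr1:139454523-139454772, plus strand) and Kif23 (chr9:61946800-61947049, minus strand) are shown as 3 of the mitotic genes that fell most, with both motifs in capitals on either strand. Cdc20 holds both motifs, and Aspm and Kif23 hold CCAAT alone.
Cdc20: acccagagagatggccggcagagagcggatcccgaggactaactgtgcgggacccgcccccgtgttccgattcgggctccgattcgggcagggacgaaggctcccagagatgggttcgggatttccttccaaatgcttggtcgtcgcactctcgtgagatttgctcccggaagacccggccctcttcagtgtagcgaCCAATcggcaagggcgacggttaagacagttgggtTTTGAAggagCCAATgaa
Aspm: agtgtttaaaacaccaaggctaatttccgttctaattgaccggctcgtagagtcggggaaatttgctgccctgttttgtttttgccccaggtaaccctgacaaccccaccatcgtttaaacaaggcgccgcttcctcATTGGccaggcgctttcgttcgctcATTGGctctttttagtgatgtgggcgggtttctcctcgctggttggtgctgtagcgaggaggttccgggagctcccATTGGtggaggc
Kif23: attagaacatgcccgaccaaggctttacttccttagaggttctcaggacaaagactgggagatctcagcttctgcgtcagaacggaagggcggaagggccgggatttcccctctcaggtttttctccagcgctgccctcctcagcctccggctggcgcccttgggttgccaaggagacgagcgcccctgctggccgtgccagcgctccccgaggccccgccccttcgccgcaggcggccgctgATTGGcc

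Replication genes lay nearer the shares of all genes. Of 60 genes of DNA replication and the G1/S step 14 were at least 2-fold lower and 7 higher, with a median of -0.27. E2f2, an activating E2F, fell from 18.3 ± 1.38 to 1.21 ± 0.332 CPM (-3.92 ± 0.20). Ccnd2, a D-type cyclin, rose from 13.9 ± 2.98 to 661 ± 49.8 CPM (5.57 ± 0.14), and Rbl1, which encodes the pocket protein p107, from 28.002 ± 5.72 to 223 ± 30.4 CPM (2.99 ± 0.14). The helicase loading genes Mcm5 (35.9 to 50.8 CPM, 0.50 ± 0.09) and Mcm10 (2.2) were higher, though Mcm5 was not called with upper-quartile scaling (0.18) or library totals alone (-0.17), and Ccnd3 (-0.12 ± 0.14) was not called. DNA repair genes were lower in 28 of 70 cases and higher in 4 (median -0.78). The mismatch repair gene Msh6 fell from 31.4 to 3.94 CPM (-3.0), and the checkpoint kinase gene Chek2 fell from 23.9 ± 2.08 to 2.04 ± 0.354 CPM (-3.53 ± 0.17). Among p53 pathway genes 7 of 27 were lower and 8 higher (8 and 6 with upper-quartile scaling, 12 and 5 with library totals), and the Gadd45 genes moved apart, Gadd45a from 47.5 to 3.16 CPM (-3.9), Gadd45b from 28.4 to 427 CPM (3.9) and Gadd45g by 3.25. Cdkn1a, the cell cycle inhibitor p21, rose from 222 ± 18.4 to 1584 ± 103 CPM (2.83 ± 0.09).

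**Figure D5:**
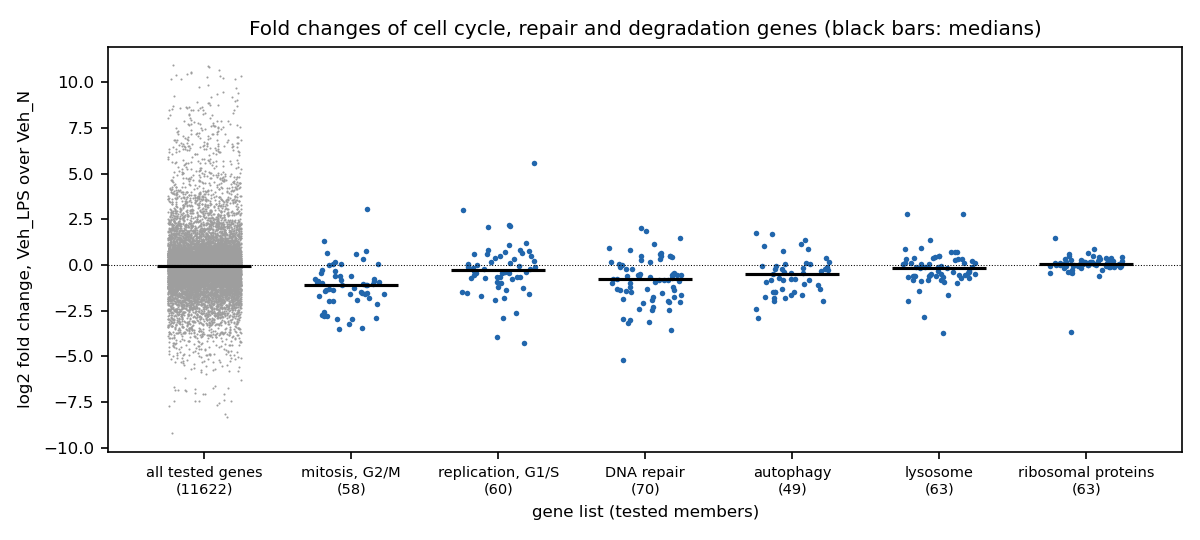
Log2 fold change of Veh_LPS over Veh_N for all 11622 genes (grey) and for 6 lists (blue points are genes, black bars are medians). The median is -1.08 for mitosis, -0.78 for DNA repair, -0.48 for autophagy and 0.07 for ribosomal proteins, against -0.07 for all genes.

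The shares of autophagy and lysosome genes at least 2-fold lower differed, by a margin that rests on the scaling. Of 49 autophagy genes 17 were at least 2-fold lower and 5 higher (24 and 3 with upper-quartile scaling, 29 and 2 with library totals) (median -0.48). Ulk1, the kinase that starts autophagy, read 47.3, 56.4 and 57.6 CPM in the Veh_N libraries and 14.4, 13.6 and 12.8 CPM in the Veh_LPS libraries, lower in each LPS library (-1.99 ± 0.11). Tecpr1 (304 to 56.5 CPM, -2.43), the cargo receptor gene Nbr1 (183 to 47.5 CPM, -1.95), the mitophagy kinase gene Pink1 (-1.8) and Atg16l2 (-2.9) fell, and Gabarap (0.07 ± 0.10) was not called. The cargo receptor genes Sqstm1 (486 to 1253 CPM, 1.36) and Optn (1.73), chosen after their values were seen, rose. Of 63 lysosomal enzymes and membrane proteins 5 were at least 2-fold lower and 3 higher (13 and 3 with upper-quartile scaling, 30 and 2 with library totals). At any size 31 of the 63 were called lower and 18 higher, where 38.9% of all genes were called lower and 35.0% higher. Sgsh (102 to 7.94 CPM, -3.69), a sulfatase, was lower and the protease gene Ctsc (176 to 1219.7 CPM, 2.79) higher. Ctsb, one of the most abundant genes, was not called (20185 to 18759.5 CPM, -0.11 ± 0.07). Of 18 subunits of the proton pump 14 were not 2-fold apart, 3 were higher and 1 lower (1 and 2 with upper-quartile scaling, 0 and 4 with library totals), the lower one being Atp6v0d2 (232 to 57.1 CPM, -2.02). The E-box letters CACGTG were in 17 of 61 promoters (27.9%) of the lysosomal list.

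Growth signalling was lower in part. Of 53 genes of PI3K, AKT, mTOR and insulin signalling 19 were at least 2-fold lower and 8 higher (median -0.41). Besides Sesn1 these were the docking protein genes Gab1 (27.6 to 2.24 CPM, -3.62) and Gab3 (-3.84), the mTOR inhibitor gene Deptor (51.9 to 5.85 CPM, -3.14), the translation repressor gene Eif4ebp2 (-2.32) and Inpp5d, the lipid phosphatase SHIP1 that opposes PI3K (238 ± 6.21 to 31.1 ± 1.29 CPM, -2.93 ± 0.08). Several of these proteins act as brakes and others as relays, so the list has no single direction of effect. Igf1 (-0.04 ± 0.12) was not called.

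Arhgap19, a GTPase-activating protein, read 213, 204 and 209 CPM in the Veh_N libraries and 6.52, 7.21 and 4.81 CPM in the Veh_LPS libraries, low in every LPS library (-5.08 ± 0.16), and Arhgap18 went from 205 ± 22.2 to 21.02 ± 1.62 CPM (-3.29 ± 0.11). The exchange factor genes Plekhg3 (-5.77) and Vav2 (-2.97) were lower too, Rnd3 rose (4.02) and Rac1 was not called (0.15 ± 0.07), but was higher without Veh_N replicate 3 (0.19) and by DESeq2 (0.21) and lower with library totals alone (-0.52). Genes of TBC1 domain proteins, which switch off Rab GTPases, fell in 12 of 29 cases and rose in 5 (median -0.90), led by Tbc1d16 (17.6 to 0.961 CPM, -4.17).

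Alternative activation genes, those linked to interleukin-4 and repair, were lower in 8 of 22 cases and higher in 6. Selenop, a secreted selenium carrier and one of the most abundant genes in Veh_N, fell from 4481 ± 451 to 746 ± 38.8 CPM (-2.59 ± 0.09), and Egr2 fell by 1.94 on the log2 scale, while the chemokine gene Ccl22 rose (7.04).

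Ribosomal protein genes changed little under TMM. Of 63 cytosolic ribosomal protein genes 61 were not 2-fold apart, 1 was lower and 1 higher (1 and 0 with upper-quartile scaling, 6 and 0 with library totals), and neither Rpl4 (563 to 637 CPM, 0.18 ± 0.10) nor Rpl8 (0.26 ± 0.13) was called. Without Veh_N replicate 3 both were (0.29 and 0.39), and Rpl8 also was without Veh_LPS replicate 3 (0.37) and by DESeq2 (0.31). Rpl8 was called higher too without both libraries that stood apart (0.25). The summed level of the list ran from 4710 to 7569 CPM in Veh_N and from 5309 to 7298 CPM in Veh_LPS, lowest in the 2 libraries that stood apart. Of 76 mitochondrial ribosomal protein genes 4 were higher and 1 lower by 2-fold (1 and 3 with upper-quartile scaling, 1 and 13 with library totals), and of 62 ribosome biogenesis genes 5 and 7. Proteasome subunits rose instead, with 23 of 44 at least 2-fold higher and 0 lower (14 and 0 with upper-quartile scaling, 8 and 0 with library totals) (median 1.03), Psme2, of the interferon-induced activator, from 25.3 ± 3.696 to 210.0 ± 21.3 CPM (3.05 ± 0.12). With library totals alone the median of the proteasome genes was 0.36 and that of the ribosomal genes -0.60.

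On the induced side, 32 of 32 antiviral and interferon-induced effector genes were at least 2-fold higher, with a median of 4.59. Rsad2, which encodes viperin, read 73.2, 76.2 and 46.7 CPM in the Veh_N libraries and 25052, 25071 and 26716 CPM in the Veh_LPS libraries, more than 2 orders of magnitude apart (8.61 ± 0.19). Ifit1, which binds foreign RNA caps, read 19.2, 17.6 and 10.4 CPM in the Veh_N libraries and 3444, 3218 and 4028 CPM in the Veh_LPS libraries, again without overlap (7.81 ± 0.21). Cmpk2 (8.68), Oasl1 (8.46) and Ifit2 (7.55) rose by similar amounts. The core letters of the interferon-stimulated response element, GAAANNGAAA, were searched on both strands. They were in 8 of 26 promoters (30.8%) of this list, in 132 of 2115 promoters (6.2%) of all genes at least 2-fold higher, in 54 of 2580 promoters (2.1%) of those at least 2-fold lower and in 348 of 11884 promoters (2.9%) of all tested genes. The stretches of Ifit1 (chr19:34640639-34640888, plus strand) and Rsad2 (chr12:26456453-26456702, minus strand) are shown for contrast with the promoters of the falling genes, with the element in capitals, here on the opposite strand.
Ifit1: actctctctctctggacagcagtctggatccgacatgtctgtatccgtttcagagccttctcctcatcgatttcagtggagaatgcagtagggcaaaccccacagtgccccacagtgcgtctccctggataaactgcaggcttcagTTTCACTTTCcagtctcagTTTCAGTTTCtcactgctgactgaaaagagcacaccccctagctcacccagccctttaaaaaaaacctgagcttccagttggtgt
Rsad2: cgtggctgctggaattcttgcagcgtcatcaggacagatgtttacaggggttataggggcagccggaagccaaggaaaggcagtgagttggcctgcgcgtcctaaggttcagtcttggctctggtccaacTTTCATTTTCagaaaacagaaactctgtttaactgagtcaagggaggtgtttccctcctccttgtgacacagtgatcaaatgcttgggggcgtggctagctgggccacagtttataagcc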

How the data were processed

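RNA of 9 macrophage samples was sequenced from strand-specific KAPA libraries, per the labels' protocols. STAR 2.5.2b and DESeq2 are named per the submitters' processing notes, with the builds mm10 and mm9. Which program, annotation and strand setting gave the counts is not stated in the sources used here. The authors deposited raw read counts for 35745 RefSeq transcripts. Of these 35440 were matched to symbols through a RefSeq table and 188 through GENCODE vM21, 117 were not matched, and the transcript with the highest total stood for each of 24445 genes. Unmatched transcripts held 0.676% to 2.37% of a library's counts and entered neither library sizes nor tests.

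Genes kept by filterByExpr (11622) were fitted in edgeR 4.0.16 (R 4.3.3) with TMM and glmQLFit (robust) on the 9 libraries with a group term alone, and tested two-sided. SE is the log2 fold change divided by the root of F. Data were simulated for Veh_LPS against Veh_N (11231 genes) from the Veh_N levels, with 200 genes changed up or down. They held no shift in RNA make-up like that under LPS, so the results cannot describe errors from the scaling. Changes of 1.5-fold were recovered in 56.1% of 66 genes, those of 2-fold in 89.2% of 65 and those of 4-fold in 100% of 66. Of 11034 genes without a change 8 were called. Exact binomial intervals (95%) are given for genes with at most 9 counts in all in a group, and cover counting error only.

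The members, 48 gene lists, 22 symbol families and the naming rule were chosen with earlier results of these data known. The rule took from each list up to 6 called members of largest change (at least 2-fold, 10 CPM in the higher group) and up to 2 uncalled ones of highest level, from each family the 2 lowest and the highest, over all genes the 30 largest falls and 10 largest rises (at least 20 CPM, no overlap), and a fixed set of genes. Not every gene, list and family is printed, and some are not reported here.

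For promoters, the 250 bases before each start in RefSeq's table (GRCm38.p6) were used, 11884 stretches of 9345 tested genes, both strands. In all 14 motifs were searched, and those printed were chosen after their shares were seen. The others were TTTGGCGC (E2F), GTCACGTGAC (CLEAR), GGGNNTTTCC (kappaB), TGACGTCA (CRE), GGGGCGGGG (GC box), TGANTCA (AP-1), CCGGAAGT and GGAAGTG (ETS) and TGTTTAC (forkhead). CLEAR overlaps the E-box. Where a gene has several promoters, the first with a match is shown. Alternatives were DESeq2 1.42.0, limma-voom (limma 3.58.1), upper-quartile scaling, library totals alone, no filter, a filter at 5 CPM, the sum of transcripts, the 6 libraries alone, a replicate block, each library left out, and, chosen after seeing the data, both libraries that stood apart left out.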

Additional observations from a re-analysis of the deposited data

How the results depend on the processing

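The counts of called genes rested most on the scaling. With library totals alone 2112 genes were called higher and 7589 lower, and 1277 and 4714 of them at least 2-fold, against 4071, 4516, 2069 and 2477 with TMM. With every other alternative these 4 counts stayed within 1.5 times. Leaving out 1 library gave 3862 to 4161 higher, 4251 to 4565 lower, 2078 to 2188 at least 2-fold higher and 2473 to 2577 at least 2-fold lower. Of the named genes 205 were called and at least 2-fold apart, and these kept their direction and call under all 19 alternatives. These genes were named largely for the size of their change in the same counts. That result was therefore nearly fixed in advance and does not measure how firm the calls of other genes are. Of 2660 counts of list and family members under alternatives 2497 stayed within 1.5 times.

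Genes near 0 changed sign with the scaling. With upper-quartile scaling 15 named genes turned negative, of which 7 were called lower, namely Gnas (-0.29), Gnai2 (-0.22), Itgb2 (-0.29), Maf (-0.27), Sdha (-0.29), Mdh1 (-0.26) and Gabarap (-0.25). With library totals alone 17 turned negative, namely Gapdh, which was not called, Gnas (-0.64), Gnai2 (-0.56), Ccr3 (-0.61), Tlr8 (-0.62), Siglec1 (-0.58), Itgb2 (-0.63), Maf (-0.62), Nr1h2 (-0.48), Sdha (-0.64), Mdh1 (-0.61), Pex19 (-0.51), Mcm5 (-0.17), Gabarap (-0.60), Rac1 (-0.52), Rpl4 (-0.49) and Rpl8 (-0.41), and of these Mcm5 was not called either. A further 15 genes that were negative but not called with TMM were called lower with upper-quartile scaling, namely Ccr1 (-0.55), Il4ra (-0.52), Tgfb1 (-0.33), Cd68 (-0.46), Tyrobp (-0.67), Fcgr3 (-0.46), Ncor1 (-0.32), Clock (-0.47), Tfe3 (-0.47), Cpt1a (-0.46), Sqle (-0.44), Hmox1 (-0.45), Ccnd3 (-0.44), Ctsb (-0.43) and Igf1 (-0.36). With library totals alone 31 of the 32 named genes not called with TMM were called lower.

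With the replicate number as a block 3945 genes were called higher and 4338 lower, and of the named genes only Tlr4 lost its call. Same-numbered Veh_LPS and Veh_N libraries deviated with correlations of -0.218, 0.0961 and -0.456 across genes. The deviation shared by Veh_N replicate 1 and Veh_LPS replicate 3 enters these values, so they cannot tell whether the numbers pair the samples. Depth of 9451258 to 13759935 counts limits genes with few counts in 1 group. The cause of the difference between scalings was not tested.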
